A study of Mus musculus with 8 samples.

Results

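The step from 6 to 24 h of c-Src induction starts when the message of the induced kinase was already high. It was measured as the direct difference between the 24 h arrays and the 6 h arrays, 4 of the 8 arrays of the series. The spread behind each p-value was estimated from all 8 arrays. Of 55681 probes that are not controls, 27542 were well above background on both arrays of at least 1 of these 2 times and were tested, and the brightest of them stood for each of 20210 genes. The filter did not use the difference between the times. A gene dim at 1 time could still enter through the time at which it was brighter. Of the called genes, 51 rises had no 6 h array well above background and 77 falls had no 24 h array so. The list counts below include such genes.

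All groups were mouse embryonic fibroblasts, CskKO (Csk-/-), carrying the doxycycline vector pBKT2-c-Src, so the deletion of Csk and the vector were common to every array. The 6 h group (2 arrays) and the 24 h group (2 arrays) had been kept with 1 µg/ml doxycycline for 6 and 24 h, and the groups used for a later comparison were the 0 h arrays (2 arrays) and the 72 h arrays (2 arrays). The 72 h group had the same dose for 72 h, and for the 0 h group no dose is given. Per the labels' protocols every sample was hybridised in duplicate. Whether the duplicates came from separate cultures is not stated. A p-value here therefore sets a difference only against the scatter between these arrays, and that scatter may be technical. Time on doxycycline, time in culture and time with c-Src run together in these groups and cannot be told apart, and no arm with doxycycline and no vector was analysed here.

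c-Src is a tyrosine kinase of the inner face of the plasma membrane that passes signals from integrins and growth factor receptors to the ERK, STAT3 and focal adhesion pathways. Csk phosphorylates the inhibitory tyrosine near the end of c-Src, and cells without Csk hold c-Src in an open and active form. In fibroblasts a new growth signal first switches on immediate early genes, transcription factors whose messages need no new protein, and then the delayed genes of matrix remodelling, metabolism and growth, while feedback phosphatases and inhibitors damp the first wave.

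Levels below are log2 signals relative to the 75th percentile of each array, so that 0 is the signal of a probe at that percentile and 1 unit is a 2-fold difference. Src stood at 3.46 and 3.49 on the 6 h arrays and at 3.29 and 3.31 on the 24 h arrays, against -1.35 and -1.19 at 0 h. The difference across the step was -0.18 ± 0.06 (SE), with an adjusted p of 0.091 by limma, which did not pass the threshold of 0.05. The probe for Csk was well above background on none of the 8 arrays.

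The arrays were of like quality, with 49.9% to 54.7% of spots well above background, 75th percentiles between 370.3 and 393 intensity units, and replicate correlations between 0.9964 and 0.9978 across probes. All lay on 1 slide, where the row followed the time and the column followed the replicate number, so slide row and time cannot be told apart. Spots well above background were 52.1% to 54.7% in column 1 and 49.9% to 51.5% in column 2. The dimmest such signal was at -5.25 to -4.99 in column 1 and at -4.80 to -4.64 in column 2. The replicates of each time thus differed in what counted as well above background. The first principal component held 60.2% of the variance and placed the 6 h arrays at -28.1 and -29.1 and the 24 h arrays at 20.5 and 28.7. Of 12 fibroblast markers, 9 were well above background on all 4 arrays, and Prrx1 and Thy1 on none. The summed fibroblast signal, in multiples of the 75th percentile, was 659 to 665 at 6 h and 567 to 594 at 24 h. Of 9 tested fibroblast markers 3 fell (33.3%, against 13.4% of all genes) and 1, Vim, rose (0.25). With arrays scaled to the median 1 fell and 1 rose. Macrophage markers summed to 17.9 to 18.1 at 6 h and 16.4 to 17.3 at 24 h with Adgre1, Lyz2, Ptprc and Tyrobp on no array, and endothelial markers to 2.29 to 2.53 and 2.37 to 2.46 with Cdh5, Cldn5 and Emcn on none. Muscle markers summed to 2.72 to 2.91 and 2.39 to 2.42 with Ckm, Myh3, Myod1 and Myog on none. Of 3 tested muscle markers 1, Tnnt1, fell (-1.14) and the others did not pass. The epithelial sum was 3.57 to 3.65 at 6 h and 4.41 to 5.18 at 24 h with Cdh1, Cldn4 and Epcam on no array. Of its 6 tested members 3 rose and 1, Krt14, fell (-0.97). The adipocyte sum was 0.844 to 0.866 and 1.69 to 2.14 with Adipoq, Cfd, Lep and Plin1 on none. Of its 2 tested members Fabp4 rose by 1.64 and Pparg did not pass (-0.09). The part of these markers in the results was not tested, and in bulk RNA a change in the number of cells of a type and a change in RNA per cell cannot be told apart.

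Many genes changed across the step, most of them by less than 2-fold. Of 20210 genes, 5205 passed the test (25.8% called), 2495 higher at 24 h (12.3%) and 2710 lower (13.4%). Changes of at least 2-fold were fewer, with 141 genes higher (0.698%) and 315 lower (1.56%), or 48 and 116 with normexp background correction, which lifts dim signals, and 83 and 229 among genes well above background on all 4 arrays. The shares of 12.3% higher and 13.4% lower are those that the counts of each gene list below stand beside. The 24 h arrays lay wholly above or below the 6 h arrays for 13332 genes, or 66% of those tested. Such a gap, given for single called genes below, describes them and adds no support to their calls. The median difference over all genes tested was -0.02.

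Of the calls, 47.9% were higher at 24 h, a share that was 68.8% with arrays scaled to their median signal in place of the 75th percentile (2790 higher and 1268 lower). Of the arrays left out in turn, those of 6 h reduced the calls the most, to 916 higher and 1478 lower without 6 h replicate 1 and to 1015 and 1354 without 6 h replicate 2, and 1228 and 1891 were left without 24 h replicate 2.

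**Figure D1:**
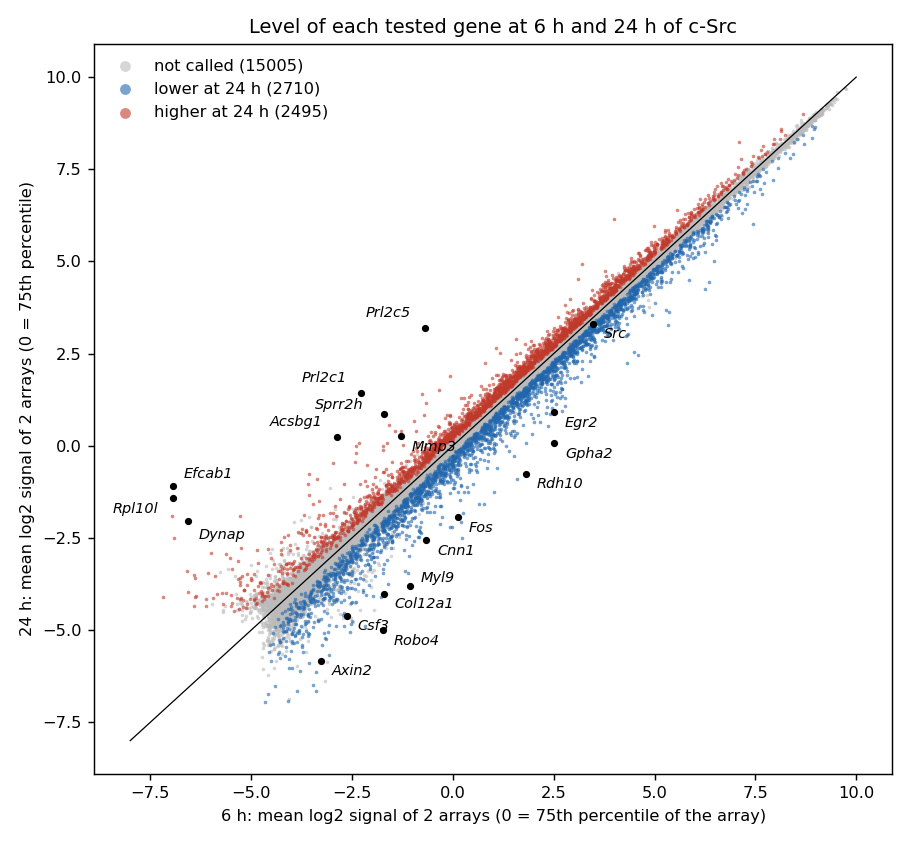
Mean level of each of 20210 genes at 6 h (horizontal axis) and at 24 h (vertical axis), as log2 signal relative to the array's 75th percentile, 2 arrays a time. The 2495 genes called higher at 24 h are red, the 2710 called lower are blue and the other 15005 are grey; most called genes lie close to the diagonal, and Prl2c5 above it and Robo4 below it are among those far from it.

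The largest rises at signals that were measured at both times were those of the prolactin family 2c, placental hormones also known as proliferins, which growth-stimulated fibroblasts make. Prl2c5 stood at -0.71 and -0.66 at 6 h and at 3.21 and 3.19 at 24 h, a 14.7-fold rise (log2 3.88 ± 0.08, adjusted p = 9.21e-05 by limma). Prl2c1 stood at -2.32 and -2.25 at 6 h and at 1.45 and 1.41 at 24 h, a 13.1-fold rise (3.72 ± 0.07, adjusted p = 5.09e-05). The arrays of the 2 times were far apart for both genes, and their probes lie at chr13:13283943-13284002 and chr13:27948312-27948371 of mm9. The family holds near-identical copies, so which copy each probe read is uncertain, and a further Prl2c5 probe gave 3.72. Both genes rose at each stage up to 24 h: Prl2c5 was at -4.23 and -3.99 at 0 h and at 2.79 and 2.74 at 72 h.

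Acsbg1, an acyl-CoA synthetase that activates long-chain fatty acids, stood at -2.87 and -2.89 at 6 h and at 0.08 and 0.41 at 24 h, an 8.67-fold rise (3.12 ± 0.12, adjusted p = 0.000309). Arhgap6, a GTPase-activating protein for RhoA, went from -3.69 and -3.45 to -0.80 and -0.74, a 6.98-fold rise, though its other probe gave 0.54 (adjusted p = 0.136). Here too the 24 h arrays did not overlap the 6 h arrays, as in 66% of all genes tested.

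Several of the other large rises started from signals that were well above background on no 6 h array, so only a lower bound holds for them. It was taken against the dimmest signal that counted as well above background on each 6 h array (or against the gene's reading there, if that was brighter). Klra4, of the Ly49 receptor family otherwise known from natural killer cells, was at -5.39 and -5.16 at 6 h and -1.94 and -1.89 at 24 h, at least 8.11-fold higher. Dynap was at least 7.47-fold higher, Lce1g, of the late cornified envelope, at least 5.42-fold higher, and Klra15 at least 4.05-fold higher. The bounds were at least 3.96-fold for Smoc2, a secreted calcium-binding matrix protein, at least 2.54-fold for Pbp2 and at least 1.78-fold for Phex, an endopeptidase of phosphate balance. Clip4 and Lce1i, also among the 15 largest rises, were at least 2.71-fold and 2.91-fold higher, but rest on single arrays. Clip4 passed neither without 6 h replicate 1 (adjusted p = 0.0518) nor without 24 h replicate 2 (adjusted p = 0.0738), and its other probe did not pass (adjusted p = 0.0817). Lce1i had an adjusted p between 0.0504 and 0.161 without any one of the 4 arrays. Klra and Lce genes are near-identical copies in which the copy read is uncertain.

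The nominally largest rises, Efcab1 and Rpl10l, were read by single features that lie close together on the array, in rows 8 and 10 of column 41. Efcab1 was at -7.21 and -6.66 at 6 h and -1.14 and -1.02 at 24 h, and Rpl10l at the same values at 6 h and at -1.41 and -1.44 at 24 h. Both were back at -7.23 and -6.81 at 72 h. The other Rpl10l probe was well above background on none of the 8 arrays. Of the other Efcab1 probes, one was bright on 24 h replicate 1 alone (-1.06) and one on none. These values are given as spot readings and carry no statement about the genes.

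Among the 15 largest falls were a guidance receptor, a myosin light chain, a retinol dehydrogenase and a secreted lipid enzyme. Robo4, a guidance receptor known from endothelium, was at -1.82 and -1.65 at 6 h and at -5.07 and -4.94 at 24 h (probe at chr9:37221547-37221606 of mm9). It was well above background on no array of the later time and at least 8.78-fold lower. Myl9, the regulatory light chain of smooth muscle and non-muscle myosin, fell 6.63-fold, from -1.04 and -1.11 to -3.58 and -4.02. Rdh10, which oxidises retinol on the way to retinoic acid, fell 5.95-fold, from 1.75 and 1.86 to -0.49 and -1.04.

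Enpp2, the secreted enzyme autotaxin that makes lysophosphatidic acid, fell 5.62-fold, from 1.59 and 1.60 to -0.51 and -1.28. Gpha2, a glycoprotein hormone subunit, had the tightest readings among the large falls, 2.50 and 2.53 at 6 h against 0.08 and 0.04 at 24 h (-2.45 ± 0.06, adjusted p = 0.000113). Rhbdl3, a rhomboid-like membrane protease, fell 5.07-fold, from 0.80 and 0.75 to -1.43 and -1.70. In each of these genes both 24 h arrays lay more than 1 unit below both 6 h arrays.

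The potassium channel subunit Kcns3 went from 0.23 on both arrays to -2.32 and -2.68 (-2.73 ± 0.35, adjusted p = 0.00505), and carbonic anhydrase Car3 from -1.18 and -0.93 to -3.44 and -4.22 (-2.77 ± 0.37). Car3, the extracellular matrix protein Fras1 and the amine oxidase Aoc3 were well above background on a single 24 h array. Axin2 was at least 3.05-fold lower, Calml3 at least 3.51-fold, Gabra3 at least 2.8-fold, Mucl1 at least 2.78-fold and Rassf9 at least 2.64-fold. With normexp the difference of the dim Myl9 was -1.46, against -2.29 for Gpha2 and 3.53 for Prl2c5.

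**Figure D2:**
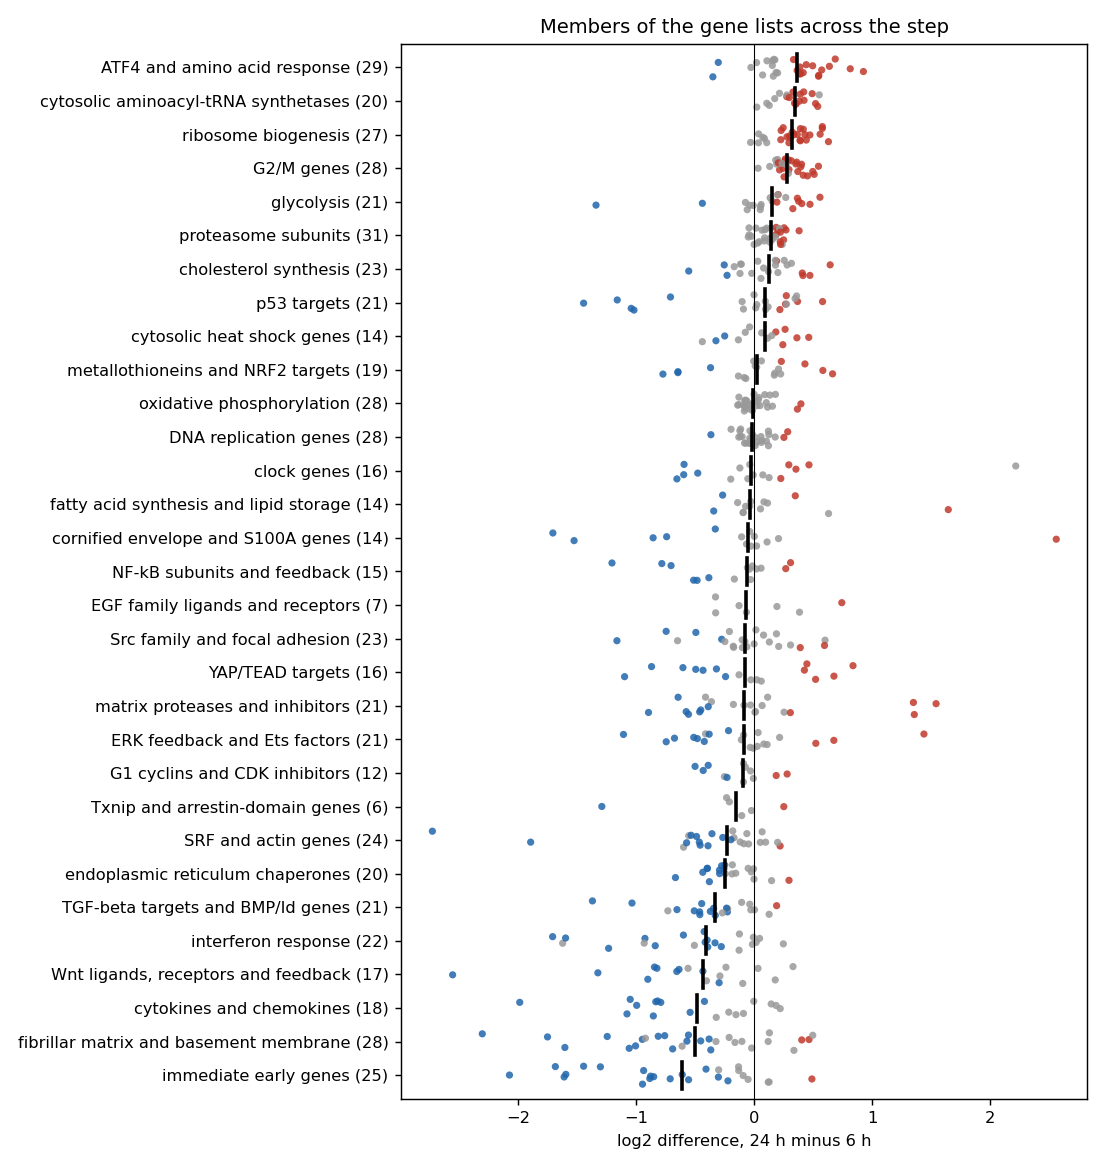
Difference between 24 h and 6 h (log2, horizontal axis) for every tested member of each gene list with at least 6 tested members; each dot is a gene, the black bar is the list's median and the number of genes tested is in brackets. The immediate early list has its bar at -0.61, furthest to the left, and the lists of amino acid and ribosome genes have theirs on the right, between 0.32 and 0.36.

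Most of the immediate early genes fell. Of 25 tested, 17 fell, 1 rose and 7 did not pass, beside 13.4% and 12.3% of all genes, and the median difference was -0.61 against -0.02 over all genes. Fos, a subunit of the AP-1 transcription factor, was at 0.07 and 0.19 at 6 h and at -1.95 and -1.93 at 24 h, a 4.21-fold fall (-2.08 ± 0.13, adjusted p = 0.00083). At 0 h it had been at -2.65 and -2.25, so its 24 h arrays lay closer to the 0 h arrays than to those of 6 h.

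Egr2, a zinc finger factor of the serum response, was at 2.50 and 2.52 at 6 h and at 0.96 and 0.86 at 24 h (-1.60 ± 0.08, adjusted p = 0.000527). Its relative Egr1 was at 5.29 on both 6 h arrays and at 3.69 and 3.67 at 24 h, a 3.06-fold fall. Egr2 had been at -2.24 and -2.03 at 0 h, so at 24 h it was still well above its start.

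Fosl2, a Fos-related subunit of AP-1, was at 4.29 and 4.33 at 6 h and at 3.01 on both arrays of 24 h (-1.30 ± 0.05), with a smaller fall on its other probe (-0.58). Zfp36, which binds AU-rich messages and speeds their decay, went from -2.30 and -2.16 to -3.74 and -4.10 (-1.69 ± 0.23). Btg2, an antiproliferative gene, fell by 1.45, Nr4a1, an orphan nuclear receptor, by 0.95, Srf, the serum response factor itself, by 0.94 (0.38 on its other probe), and the AP-1 subunits Junb and Jun by 0.85 and 0.71.

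Myc, the growth and ribosome-gene factor, was the 1 member that rose, from 1.93 and 2.05 to 2.40 and 2.55 (0.49 ± 0.07, adjusted p = 0.00812). Fosl1, a Fos relative that marks long ERK activity, had a difference of 0.12 and did not pass. Neither did Fosb (-0.13), Nr4a2 (-0.13), Ier5 (-0.30, though its other probe passed at -0.42), Klf2 (0.12), Maff (-0.05) and Mafk (-0.09). The count of falls was 14 with arrays scaled to the median.

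Many of the immediate early genes that fell were above their 0 h level at 72 h. Of the 17 that fell across the step, 10 were higher at 72 h than at 0 h and 3 were lower, a comparison that uses none of the 6 h and 24 h arrays. The 3 lower ones were Fos (-0.55), Fosl2 (-1.04) and Btg2 (-1.38).

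CArG boxes, the sites that serum response factor binds, were looked for by letter in the 250 bases before the start of each gene, on both strands, in the RefSeq promoter table (build GRCm38.p6). They were in 2 of 20 immediate early genes with a promoter in the table, against 1.4% of 27025 promoters. Both were genes that fell, and Srf, which holds 2, is shown with both boxes in capitals because it is the factor's own gene; such a match is a description of letters, not a measured site.
Srf (chr17:46556185-46556254, minus strand): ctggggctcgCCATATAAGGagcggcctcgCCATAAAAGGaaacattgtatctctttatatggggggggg
Zfp36 (chr7:28379247-28379316, minus strand): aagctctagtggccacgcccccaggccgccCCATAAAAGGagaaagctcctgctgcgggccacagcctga

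**Figure D3:**
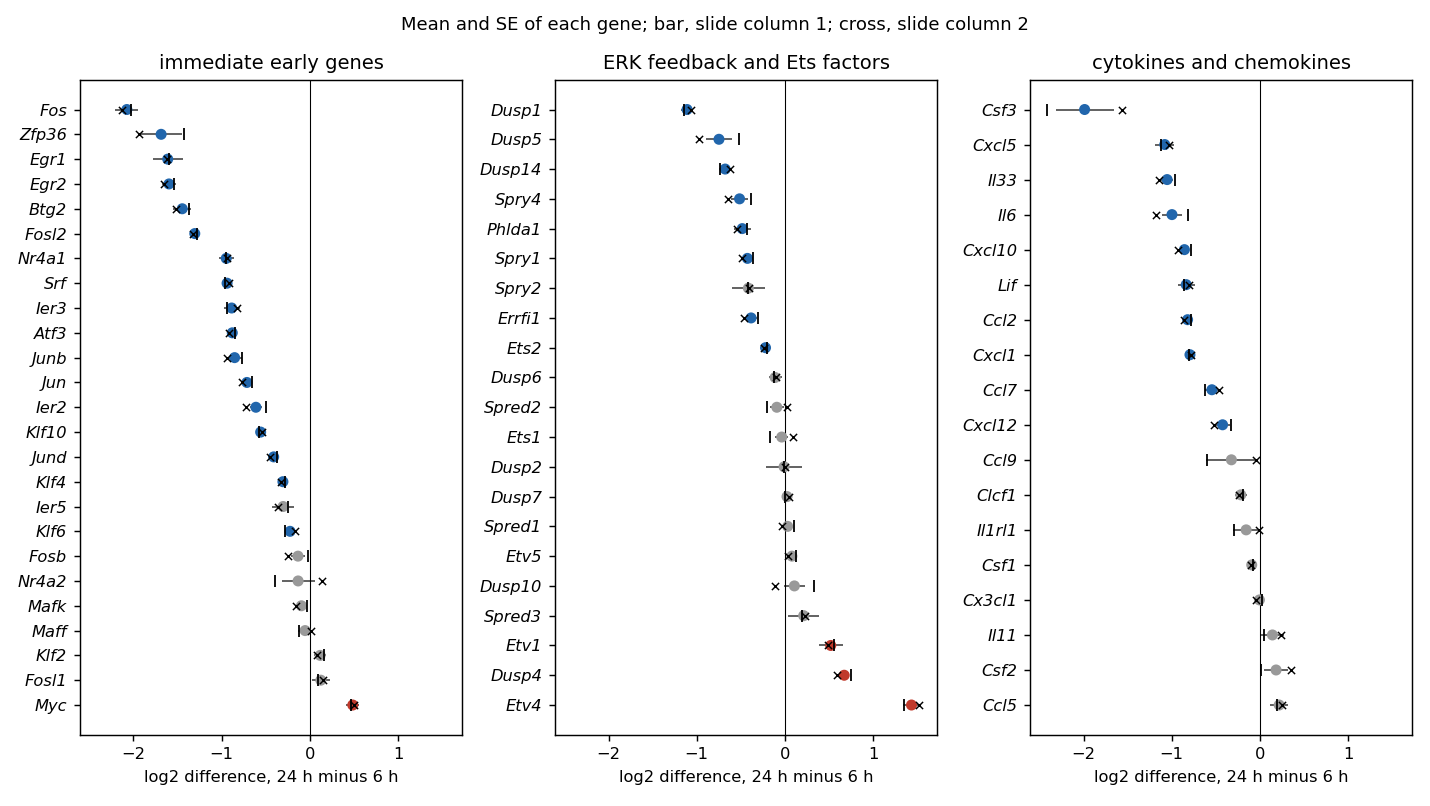
Difference between 24 h and 6 h (log2) for the immediate early, ERK feedback and cytokine lists, drawn as the fitted mean with its SE; the small bar and the cross are the differences within slide columns 1 and 2. Fos at -2.08 and Csf3 at -1.99 are the lowest of their lists, Etv4 at 1.44 is the highest of all 3, and the marks of the 2 columns stand close together for most genes.

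Of 21 tested genes in the ERK feedback and Ets list, 8 fell (38.1%, against 13.4% of all genes) and 3 rose (14.3%, near the 12.3% of all genes). Dusp1, a nuclear phosphatase of MAP kinases that is itself an early gene, was at 0.99 and 1.05 at 6 h and at -0.16 and -0.02 at 24 h (-1.11 ± 0.07, adjusted p = 0.000787).

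Etv4, an Ets factor downstream of ERK, went the other way, from 3.05 and 3.14 to 4.40 and 4.66, a 2.71-fold rise (1.44 ± 0.10), with 1.37 on its other probe. Dusp4, another nuclear phosphatase, rose from 2.48 and 2.55 to 3.23 and 3.14 (0.67 ± 0.05). For Etv4 and Dusp4 both 24 h arrays lay above both 6 h arrays, as for Dusp1 they lay below.

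Dusp14 fell by 0.68 and Spry1, a receptor feedback inhibitor, by 0.42, while Dusp6 (-0.11) and Etv5 (0.08), which follow ERK activity closely in many cells, did not pass. The falls numbered 5 without 6 h replicate 1, 3 without 6 h replicate 2 and 4 without 24 h replicate 2, and the rises 2 in each of those settings, and 5 fell with arrays scaled to the median. With normexp the rises were 2. Of 7 tested EGF family genes only Tgfa passed, from -4.72 and -4.76 to -3.90 and -4.09 (0.74 ± 0.08), with 1 of the 2 arrays of 6 h well above background, and with normexp its difference was 0.14 (adjusted p = 0.079). The ligands Hbegf (-0.33), Ereg (-0.33), Areg (0.19) and Nrg1 (0.38) and the receptor Egfr (-0.07, or 0.03 with arrays scaled to the median) did not pass. The probes of Egfr differed, as one that was dimmer passed in the other direction (0.48, adjusted p = 0.0165) and another gave -0.21. The list had 2 rises with arrays scaled to the median, and without either 0 h array the list also had 1 fall.

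Cytokine and chemokine genes fell as well. Of 18 tested, 10 fell and the other 8 did not pass, with a median of -0.48. Ccl2, the monocyte chemoattractant, was at 6.47 and 6.57 at 6 h and at 5.69 and 5.71 at 24 h (-0.82 ± 0.05, adjusted p = 0.000873). Il6 was at -1.07 and -1.02 at 6 h and at -1.89 and -2.19 at 24 h, a 2-fold fall (-1.0 ± 0.12), and the neutrophil attractant Cxcl5 went from 3.47 and 3.52 to 2.35 and 2.48 (-1.08 ± 0.11). In all 3 genes the arrays of the 2 times were apart.

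Csf3, granulocyte colony-stimulating factor, went from -2.47 and -2.78 to -4.88 and -4.35 (-1.99 ± 0.33), with 1 of the 2 arrays of 24 h well above background, and its adjusted p was 0.0593 without 6 h replicate 1 (-1.83). Il33 fell by 1.05, Cxcl10 by 0.86, Lif by 0.84, Cxcl1 by 0.79 and Ccl7 by 0.54. Il11 (0.14), Csf2 (0.18), Ccl5 (0.22) and Csf1 (-0.09) did not pass. Of the 10 that fell, 5 were higher at 72 h than at 0 h and 4 were lower.

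Among NF-kB subunits and feedback genes, 6 of 15 fell (40%) and 2 rose (13.3%, near the share of all genes). Ptgs2, the inducible cyclooxygenase, fell from -0.49 and -0.37 to -1.74 and -1.54 (-1.21 ± 0.09, adjusted p = 0.00135). The inhibitors Nfkbie and Nfkbia fell by 0.78 and 0.71 and the subunit Relb by 0.51, whereas Rela (-0.04), Nfkb1 (-0.17, with 0.35 on its other probe) and Tnfaip3 (-0.06) did not pass. The 2 rises, Cyld (0.31) and Vcam1 (0.27, and 1.0 on its other probe), were 0 without 6 h replicate 1, 6 h replicate 2 or 24 h replicate 2 and 1 without 24 h replicate 1 or either 0 h array.

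NF-kB letters were in the 250 bases before the start of 6 of 12 cytokine genes in the promoter table and of 4 of the 6 that fell, and in 6 of 11 genes of the NF-kB list, against 7.01% of all promoters. In the NF-kB list the letters were in 3 of 5 fallers and in Cyld, the 1 riser in the table. Nfkb2 and Tnfaip3, which did not pass, held them too. These windows, with the matching letters in capitals, are shown for a secreted product and for the inhibitor of the pathway, which both fell.
Il6 (chr5:30013040-30013109, plus strand): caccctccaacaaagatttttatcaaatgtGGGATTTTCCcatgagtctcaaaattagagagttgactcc
Cxcl10 (chr5:92348953-92349022, minus strand): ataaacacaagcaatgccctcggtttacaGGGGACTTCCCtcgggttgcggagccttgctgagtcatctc
Nfkbia (chr12:55492648-55492706, minus strand): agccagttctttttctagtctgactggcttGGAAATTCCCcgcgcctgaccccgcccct

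**Figure D4:**
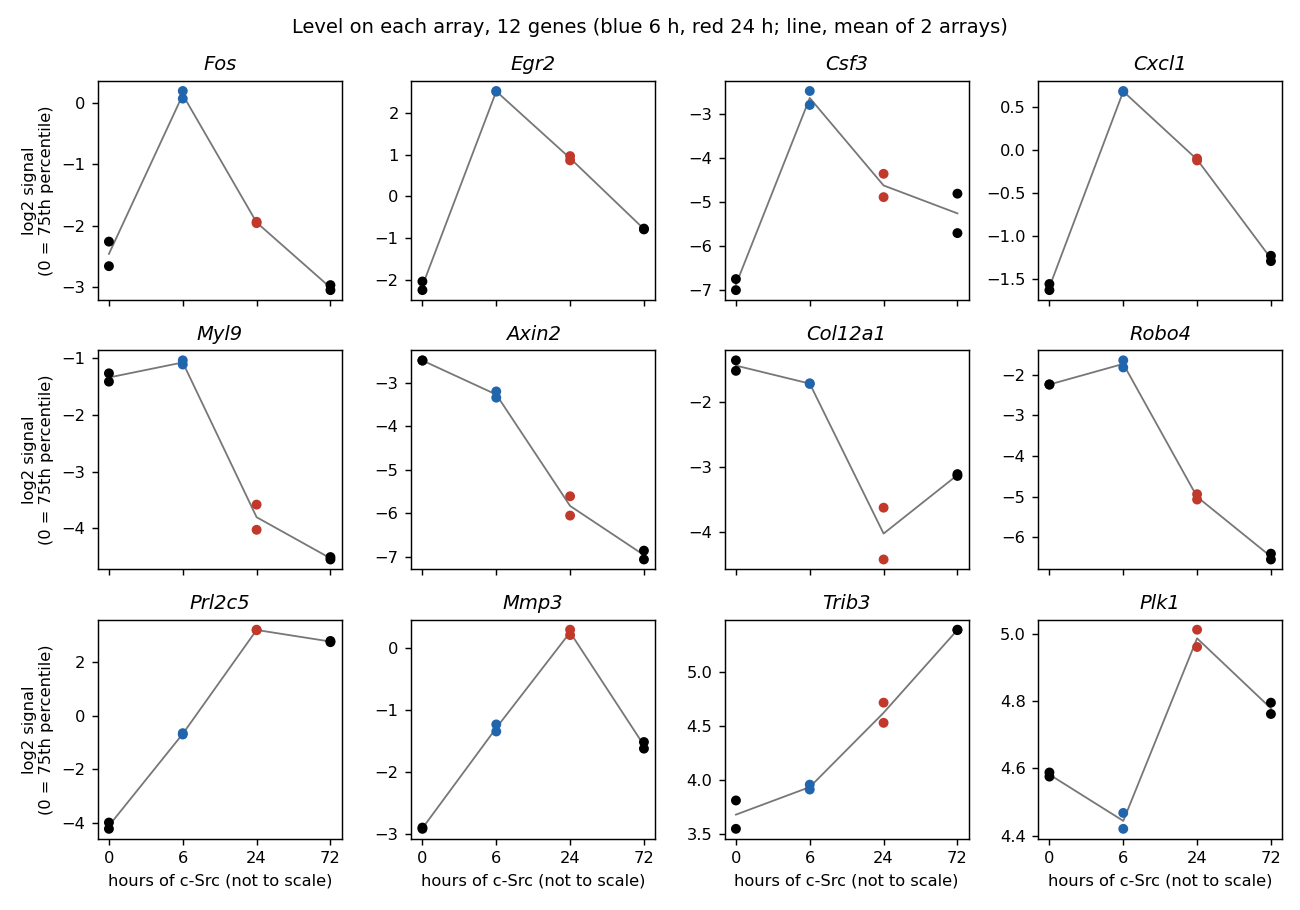
Level (log2 signal relative to the array's 75th percentile) of 12 genes on every array at 0, 6, 24 and 72 h, with the 6 h arrays in blue, the 24 h arrays in red and the others in black. Fos, Egr2, Csf3 and Cxcl1 are higher at 6 h than at 24 h, Mmp3 is highest at 24 h, and Robo4 and Axin2 fall from 6 h to 24 h and again to 72 h.

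Actin cytoskeleton genes that serum response factor controls fell in part. Of 24 tested, 11 fell and 1 rose, with a median of -0.23. Besides Myl9, Cnn1, a calponin of contractile cells, fell from -0.69 and -0.64 to -2.61 and -2.51, a 3.72-fold fall (-1.90 ± 0.12, adjusted p = 0.000847). The LIM proteins Tgfb1i1 and Zyx fell by 0.54 and 0.47 and vinculin (Vcl) by 0.36.

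The actins themselves did not pass, with -0.05 for Actb, -0.06 for Actg1 and -0.12 for Acta2, nor did Tagln (-0.56 ± 0.21, adjusted p = 0.108). Tagln2 was the rise (0.22). The falls were 8 without 6 h replicate 1 or 24 h replicate 1, 7 without 6 h replicate 2, and 5 with arrays scaled to the median, where the rises were 0. The rises were also 0 without any one of the 4 arrays. CArG letters stood before 6 of 20 of these genes, and Myl9 is shown because it fell the most.
Myl9 (chr2:156775273-156775342, plus strand): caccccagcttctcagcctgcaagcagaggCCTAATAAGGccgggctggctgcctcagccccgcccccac

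Targets of the YAP and TEAD factors, which read cell tension and density, moved both ways, with 5 of 16 higher and 7 lower. Ankrd1, a cardiac and muscle ankyrin repeat protein and a standard YAP readout, was at 5.52 and 5.59 at 6 h and at 6.28 and 6.51 at 24 h (0.84 ± 0.08, adjusted p = 0.00233). Ccn1, a matricellular protein often read beside it, was at 5.61 and 5.55 at 6 h and at 4.64 and 4.78 at 24 h (-0.87 ± 0.08, adjusted p = 0.00207). F3, the tissue factor of coagulation, fell from 3.93 and 4.0 to 2.89 and 2.85 (-1.1 ± 0.05).

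Ankrd1 was thus higher and Ccn1 and F3 lower, each with arrays that did not overlap, as in 66% of all genes tested. The receptor kinase Axl rose by 0.52. The falls were 4 without 6 h replicate 2.

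Extracellular matrix genes fell more than they rose. Of 28 tested, 15 fell and 2 rose, with a median of -0.51. Col12a1, a collagen that decorates fibrils, was at -1.71 and -1.72 at 6 h and at -4.42 and -3.62 at 24 h, a 4.94-fold fall (-2.31 ± 0.24, adjusted p = 0.00293). Fmod, a small proteoglycan of collagen fibrils, fell 3.37-fold, from 1.82 and 1.83 to 0.28 and -0.14.

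Col3a1, a fibrillar collagen and one of the brighter probes, was at 6.28 and 6.22 at 6 h and at 5.29 and 5.20 at 24 h, a 2.01-fold fall (-1.01 ± 0.06). Lox, which crosslinks collagen and elastin, fell from 2.29 and 2.34 to 1.28 and 1.22 (-1.06 ± 0.05, adjusted p = 0.000446). The 24 h arrays lay below the 6 h arrays for each of these 4 genes, where 66% of all genes tested had no overlap.

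Col6a2 and Col6a1, chains of one collagen, fell 2.37-fold and 1.93-fold, Thbs1 fell by 0.81 and Loxl1 by 0.76. Tnc (-1.61) had an adjusted p of 0.0564 without 6 h replicate 2. Fibronectin (Fn1, -0.16), Col1a1 (-0.21) and the basement membrane chains Col4a1 (-0.02) and Col4a2 (0.13) did not pass, and Col8a1 (0.46) and Fbln2 (0.40) rose. The rises were 1 without 6 h replicate 1 or 24 h replicate 2 and 0 without 6 h replicate 2. All 15 that fell were also lower at 72 h than at 0 h.

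Genes of TGF-beta and BMP signalling, which drive matrix production, fell in 12 of 21 and rose in 1. The ligands Tgfb2 and Tgfb3 fell the most. Tgfb2 went from 2.04 and 1.99 to 0.82 and 0.46 (-1.37 ± 0.12, adjusted p = 0.00171) and Tgfb3 from 4.31 and 4.34 to 3.41 and 3.17 (-1.04 ± 0.09).

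The BMP target Id1 fell by 0.46 and the ligand Bmp4 by 0.51, while Tgfb1 rose by 0.19 and Tgfbr1 (-0.03) and Inhba (0.00) did not pass. The falls were 6 without 6 h replicate 1 or 6 h replicate 2 and 7 with arrays scaled to the median. The single rise was 0 without any one of the 8 arrays.

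Of 17 tested Wnt pathway genes, 9 fell and the other 8 did not pass, with a median of -0.44, and all 9 were lower at 72 h than at 0 h. Axin2, the feedback scaffold most used as a readout of beta-catenin, was at -3.34 and -3.20 at 6 h. At 24 h it was at -5.61 and -6.05, well above background on neither array. Lef1, a DNA-binding partner of beta-catenin, fell from 2.64 and 2.74 to 1.83 and 1.86 (-0.85 ± 0.06, adjusted p = 0.000942), and the receptor Fzd4 from 0.50 and 0.49 to -0.33 and -0.34 (-0.83 ± 0.05). For both, the 24 h arrays were the lower ones without overlap, where 66% of all genes tested had none.

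The ligand Wnt5a fell by 0.66 and the receptor Fzd1 by 0.64. Wnt10b (-0.90) and Nkd1 (-1.33, with 1 of the 2 arrays of 24 h well above background) lost their calls without 6 h replicate 1, at adjusted p = 0.0544 and 0.0586, and Nkd1 also without 6 h replicate 2 (-1.29, adjusted p = 0.066) and 24 h replicate 2 (-1.06, adjusted p = 0.0514). Without 24 h replicate 1 there was 1 rise. Fzd2 (0.18), Wnt4 (-0.24) and Tcf7 (-0.29) did not pass.

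Matrix proteases and their inhibitors were mixed, with 4 of 21 higher and 7 lower, and the 3 largest rises were secreted stromelysins and a collagenase. Mmp3 was at -1.34 and -1.23 at 6 h and at 0.21 and 0.30 at 24 h, a 2.91-fold rise (1.54 ± 0.07, adjusted p = 0.000382). Mmp10 rose from 1.1 and 1.24 to 2.62 and 2.43 (1.36 ± 0.11) and the collagenase Mmp13 from 1.57 and 1.55 to 2.97 and 2.85 (1.35 ± 0.11). Each had been lower again at 0 h, and each was lower at 72 h than at 24 h, by 1.82 for Mmp3, 1.95 for Mmp10 and 1.62 for Mmp13 (adjusted p = 0.000819, 0.00141 and 0.00185).

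The 3 genes lie in one cluster on chromosome 9. Plaur, the urokinase receptor, rose by 0.31, a call lost without either 6 h array or 24 h replicate 2 (adjusted p = 0.0607 to 0.102). The inhibitor Timp3 fell from 6.01 on both arrays to 5.13 and 5.09 (-0.90 ± 0.04), and Mmp11, a stromelysin with a furin site, by 0.58. Mmp2 (-0.09), Mmp14 (-0.18) and Timp1 (0.01) did not pass. The falls were 2 without 6 h replicate 1, 3 without 6 h replicate 2 and 4 without 24 h replicate 1.

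The AP-1 letters TGAGTCA, or TGACTCA on the other strand, were in the 250 bases before the start of 4 of the 15 list members in the promoter table, against 4.43% of all promoters. Those 4 were Mmp3, Mmp10, Mmp13 and Plaur, all of the 4 that rose, and 0 of the 4 fallers in the table held them. The windows of the 3 metalloproteinases are shown because these letters lie within 63 bases of each start, with the match in capitals.
Mmp3 (chr9:7445746-7445812, plus strand): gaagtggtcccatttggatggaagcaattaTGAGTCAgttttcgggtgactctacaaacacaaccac
Mmp10 (chr9:7502249-7502315, plus strand): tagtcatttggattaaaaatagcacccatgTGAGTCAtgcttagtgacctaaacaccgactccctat
Mmp13 (chr9:7272449-7272513, plus strand): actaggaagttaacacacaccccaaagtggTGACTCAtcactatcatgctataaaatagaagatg

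Cornified envelope genes, which build the outer layer of keratinocytes, held the same letters in 8 of 12 promoters while 1 of 14 was higher and 5 were lower (2 and 4 with arrays scaled to the median). Sprr2h, a small proline-rich protein, was at -1.72 and -1.70 at 6 h and at 0.77 and 0.93 at 24 h (2.56 ± 0.18, adjusted p = 0.00107). Involucrin (Ivl) went from -0.91 and -0.74 to -2.40 and -2.30 (-1.53 ± 0.19) and loricrin (Lor) from 1.23 and 0.96 to -0.38 and -0.86 (-1.71 ± 0.17). Sprr2g and Sprr2f fell by 0.86 and 0.74, and Sprr2d (0.11) and Sprr2e (-0.11) did not pass, with the copy read uncertain in this family.

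These windows set a gene that rose beside genes that fell, all with the same letters in capitals.
Sprr2h (chr3:92385457-92385523, plus strand): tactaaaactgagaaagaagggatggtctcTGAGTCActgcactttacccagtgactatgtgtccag
Ivl (chr3:92573815-92573881, minus strand): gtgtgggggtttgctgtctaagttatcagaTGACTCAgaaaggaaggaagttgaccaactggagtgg
Lor (chr3:92083154-92083220, minus strand): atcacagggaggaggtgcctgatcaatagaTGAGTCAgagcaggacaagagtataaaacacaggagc

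Interferon response genes fell in 12 of 22 and the other 10 did not pass, with a median of -0.41. With arrays scaled to the median 8 fell and 1 rose, and with the arrays of 6 and 24 h fitted alone 7 fell. Gbp2, a guanylate-binding protein of cell-autonomous defence, was at -1.70 and -1.78 at 6 h and at -3.42 and -3.48 at 24 h, a 3.27-fold fall (-1.71 ± 0.10, adjusted p = 0.000782). Psmb9, a subunit of the immunoproteasome, fell from -1.88 and -1.77 to -2.67 and -2.66 (-0.84 ± 0.07), and Oasl2 by 0.93. Isg15, a ubiquitin-like modifier, fell by 0.40.

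The upstream factors Stat2 (0.02) and Irf9 (-0.13) did not pass, and Ifit1 (-1.62) was at -0.56 and -3.48 on the arrays of 6 h and did not pass either. Oas1a was at least 1.95-fold lower with all arrays but lost its call without 6 h replicate 1 (adjusted p = 0.0549) or 6 h replicate 2 (adjusted p = 0.0891). Gbp3 (-1.60) lost it without 6 h replicate 1 (-1.76, adjusted p = 0.0966), 6 h replicate 2 (-1.44, adjusted p = 0.143) or 24 h replicate 2 (-0.99, adjusted p = 0.0546). The falls in the list were 7 without 6 h replicate 1 and 6 without 6 h replicate 2. The core of the interferon-stimulated response element, here GAAA, any 2 bases and GAAA again, on either strand, was in 11 of 19 promoters of the list and in 6 of the 12 fallers, against 3.04% of all promoters, and overlapping matches count as one run in Oas1a.
Gbp2 (chr3:142620574-142620643, plus strand): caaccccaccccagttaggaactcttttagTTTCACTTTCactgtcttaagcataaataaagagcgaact
Oas1a (chr5:120907526-120907569, minus strand): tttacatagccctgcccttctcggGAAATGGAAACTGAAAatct

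Genes of G2 and mitosis rose, each by a small amount. Of 28 tested, 20 rose and the other 8 did not pass, with a median of 0.28 and a highest difference of 0.54. Among the 20, 12 were also higher at 72 h than at 0 h. Some had been lower at 6 h than at 0 h, among them Cdc25c (-0.28), Aurkb (-0.31) and Cenpf (-0.43), while Hmmr (0.04) and Dlgap5 (-0.17) did not pass there. Plk1, the kinase that drives mitotic entry and spindle assembly, was at 4.47 and 4.42 at 6 h and at 4.96 and 5.01 at 24 h (0.54 ± 0.05, adjusted p = 0.00176). The spindle protein Dlgap5 rose from 0.59 and 0.60 to 1.09 and 1.12 (0.51 ± 0.07), and Hmmr from 2.15 and 2.09 to 2.56 and 2.58 (0.45 ± 0.05).

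For all 3 the 24 h arrays lay above the 6 h arrays, where 66% of all genes tested had no overlap. Mki67 (0.03), Ccnb2 (0.13) and Top2a (0.18) did not pass. The rises were 9 without 6 h replicate 1, 8 without 6 h replicate 2 and 11 without 24 h replicate 2. Of 28 DNA replication genes, 2 were higher (7.14%) and 1 lower (3.57%), both under the shares of all genes, with a median of -0.02 (0.07 with arrays scaled to the median, where 1 was higher and 0 lower). The rises were 0 without either 6 h array and 1 without any other array of 0 or 24 h, the falls were 0 without any of these but 24 h replicate 1, and there they were 2.

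CCAAT boxes, the letters CCAAT on either strand, were in 20 of 22 G2 and mitosis promoters in the table and in 13 of the 14 that rose, against 34.46% of all promoters. They are common letters, and Plk1 and Hmmr are shown because their boxes lie close to the start.
Plk1 (chr7:122159391-122159434, plus strand): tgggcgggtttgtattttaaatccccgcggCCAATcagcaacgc
Hmmr (chr11:40733438-40733487, minus strand): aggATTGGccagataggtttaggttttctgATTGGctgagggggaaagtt

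Among G1 cyclins and their inhibitors, 4 of 12 fell (33.3%) and 2 rose (16.7%, near the 12.3% of all genes), but 1 fell and 0 rose with arrays scaled to the median. The inhibitor Cdkn1c, p57, fell from -0.85 and -0.94 to -1.44 and -1.37 (-0.50 ± 0.07, adjusted p = 0.00741) and cyclin D3 (Ccnd3) from 5.52 and 5.57 to 5.12 and 5.18 (-0.39 ± 0.05). Cyclin D1 (Ccnd1, 0.28) lost its call without either 6 h array (0.31, adjusted p = 0.0756, and 0.24, adjusted p = 0.13), without 24 h replicate 1 (0.21, adjusted p = 0.079), and without any array of 0 h (adjusted p = 0.051) or 72 h (adjusted p = 0.056). The rises were 1 without 24 h replicate 2 and 0 without any one of the other 7 arrays, and the falls were 2 without 6 h replicate 1.

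Genes of ribosome assembly rose as a group. Of 27 tested, 21 rose and the other 6 did not pass, with a median of 0.32, and all 21 were also higher at 72 h than at 0 h. Nhp2, a core protein of box H/ACA particles that guide rRNA modification, was at 6.16 and 6.09 at 6 h and at 6.70 on both arrays of 24 h (0.58 ± 0.05, adjusted p = 0.00149). Rrp9, of the small-subunit processome, rose from 0.39 and 0.36 to 1.03 and 0.98 (0.63 ± 0.07), and Wdr12, needed for large-subunit maturation, from 2.87 and 2.85 to 3.39 and 3.48 (0.58 ± 0.05).

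Both 24 h arrays stood above both 6 h arrays for these 3 genes, where 66% of all genes tested had no overlap. Mybbp1a rose by 0.47, while Bop1 (0.03) and Npm1 (0.09) did not pass. The rises were 11 without 6 h replicate 1 and 10 without 6 h replicate 2.

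Aminoacyl-tRNA synthetases, which charge tRNAs with amino acids, rose in 13 of 20 and the other 7 did not pass, with a median of 0.35. Cars went from 4.65 and 4.64 to 5.13 and 5.19 (0.52 ± 0.05, adjusted p = 0.002) and Vars from 2.08 on both arrays to 2.70 and 2.53 (0.54 ± 0.07). Qars (0.02), Yars (0.11) and Kars (0.13) did not pass. The rises were 6 without 6 h replicate 1 and 8 without 6 h replicate 2.

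Targets of ATF4, the factor of the amino acid response, rose in 16 of 29 and fell in 2, with a median of 0.36, and all 16 were higher at 72 h than at 0 h. Cth, which makes cysteine, was at 0.43 and 0.46 at 6 h and at 1.21 and 1.53 at 24 h (0.92 ± 0.10, adjusted p = 0.00362). Trib3, a pseudokinase of the stress response, rose from 3.91 and 3.96 to 4.53 and 4.71 (0.69 ± 0.10). Shmt2, of mitochondrial serine use, was at 3.43 on both arrays of 6 h and at 4.0 on both of 24 h (0.57 ± 0.05).

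The serine synthesis enzymes Phgdh, Psph and Psat1 rose by 0.55, 0.44 and 0.36, the mitochondrial folate enzyme Mthfd2 by 0.64 and asparagine synthetase (Asns) by 0.38. Atf4 itself had 0.18 and did not pass, though its other probe did (0.30), nor did the transporters Slc7a11 (0.17), Slc7a5 (0.15) and Slc3a2 (0.17). Cebpb and Ddit4 fell by 0.35 and 0.31. The falls were 1 without 6 h replicate 1 and 0 without 6 h replicate 2 or with arrays scaled to the median.

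Endoplasmic reticulum chaperones went the other way, with 10 of 20 lower and 1 higher. Xbp1, the factor of the unfolded protein response, fell from 5.05 and 5.25 to 4.48 and 4.49 (-0.67 ± 0.08, adjusted p = 0.00457), and the chaperone Hspa5 from 6.79 and 6.80 to 6.38 and 6.34 (-0.44 ± 0.04). The falls were 2 without 6 h replicate 1, 4 without 6 h replicate 2, 6 without 24 h replicate 2 and 3 with arrays scaled to the median, and the rise was 0 without any one of those 3 arrays.

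Heat shock genes rose in 5 of 14 (35.7%) and fell in 2 (14.3%, near the 13.4% of all genes, and 0 with arrays scaled to the median), led by the mitochondrial chaperonin Hspd1, from 6.48 and 6.5 to 6.87 and 7.03 (0.46 ± 0.06, adjusted p = 0.00594). The rises were 1 without either 6 h array and 3 without 24 h replicate 2 or any array of 0 or 72 h, and the falls were 1 without any array of 0, 6 or 24 h. Proteasome subunits rose in 10 of 31 and the other 21 did not pass, by at most 0.38, but 0 rose without 6 h replicate 1, 6 h replicate 2 or 24 h replicate 2, 2 without 24 h replicate 1 and 3 without either 72 h array.

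In energy metabolism, glycolysis genes rose in 8 of 21 (38.1%) and fell in 2 (9.52%, and 1 with arrays scaled to the median). Pfkl, liver phosphofructokinase, rose from 3.79 and 3.80 to 4.27 and 4.43 (0.56 ± 0.07, adjusted p = 0.00412), Aldoa by 0.47 and Pkm by 0.40, while Aldoc, the brain isoform of aldolase, fell from 2.61 and 2.68 to 1.21 and 1.39 (-1.34 ± 0.08). The glucose transporter Slc2a1 (-0.08) and Hk2 (-0.01) did not pass. The rises were 4 without 6 h replicate 1, 3 without 6 h replicate 2 and 4 without 24 h replicate 2.

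Only Cycs (0.39) and Cyc1 (0.36), which carry electrons to the last complex, passed among 28 genes of oxidative phosphorylation (7.14%, against 25.8% of all genes). Cycs did not pass without 6 h replicate 1 (0.37, adjusted p = 0.057) or on its other probe (0.20, adjusted p = 0.0506). Cholesterol genes rose in 5 of 23 (21.7%) and fell in 3 (13.0%, near the 13.4% of all genes, and 1 with arrays scaled to the median). Without 6 h replicate 1 there were 1 of each, without 6 h replicate 2 or 24 h replicate 2 there were 3 and 1, and without 24 h replicate 1 there were 4 and 1. In lipid storage, 2 of 14 rose and 2 fell, 14.3% each and near the shares of all genes, the falls being 0 without either 6 h array or with arrays scaled to the median and 1 without 24 h replicate 1. Fabp4, the fatty acid carrier of adipocytes and macrophages, rose 3.12-fold, from -0.95 and -0.97 to 0.48 and 0.88 (1.64 ± 0.13, adjusted p = 0.00149), with Pparg at -0.09.

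Among p53 targets, 5 of 21 fell and 5 rose. Fas, the death receptor, went from 2.69 and 2.71 to 1.47 and 1.61 (-1.16 ± 0.06, adjusted p = 0.000527), Pmaip1, a pro-apoptotic Bcl2 relative, from 0.71 and 0.65 to -0.33 and -0.39 (-1.04 ± 0.08), and Trp53inp1 from 1.00 and 1.06 to 0.09 and -0.07 (-1.02 ± 0.08), though its other probe did not pass (-0.51, adjusted p = 0.141). These 3 fell by 2.03-fold to 2.24-fold, whereas Cdkn1a (-0.09) and Mdm2 (0.12), the most direct readouts, did not pass. Perp, a desmosomal protein, rose by 0.58. The rises were 1 without either 6 h array, 2 without 24 h replicate 2 and 3 without either 72 h array.

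Txnip, an inhibitor of glucose uptake that follows sugar supply, fell from 2.17 and 2.05 to 1.02 and 0.63 (-1.29 ± 0.15, adjusted p = 0.00402; its other probe gave -0.94, adjusted p = 0.13), with Arrdc3, its relative, at -0.24 and not called. Of 16 clock genes, 4 rose and 4 fell, among the falls Per2 (-0.66) and Per1 (-0.48). The rises were 1 without 6 h replicate 1 or 24 h replicate 2 and 2 without 6 h replicate 2. In the NRF2 and metallothionein list, Hmox1, haem oxygenase, fell from 4.87 and 4.92 to 4.10 and 4.15 (-0.77 ± 0.05, adjusted p = 0.000873) and the quinone reductase Nqo1 rose by 0.66. That list had 4 rises and 4 falls among 19 (21.1% each), and 2 rises without either 6 h array.

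In the Src family and focal adhesion list 2 of 23 were higher (8.7%) and 4 lower (17.4%), together 26.1% against 25.8% of all genes, so the list was called as often as genes in general. Nedd9, a docking protein that Src phosphorylates, fell from 0.09 and 0.14 to -0.59 and -0.67 (-0.75 ± 0.06). The rise of the kinase Fer (0.59) was lost without 6 h replicate 1 (0.58, adjusted p = 0.0524), and that of Lck (0.39) without any one of the 4 arrays (adjusted p = 0.0724 to 0.173).

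The ubiquitous family members Fyn (-0.10) and Yes1 (0.08), the focal adhesion kinase Ptk2 (0.21), paxillin (Pxn, 0.60) and the Src substrate Cttn (0.13) did not pass, and Bcar1 (p130Cas) fell by 0.28, a call lost without 6 h replicate 1 (-0.25, adjusted p = 0.0767). The rises were 0 without 6 h replicate 1 and 1 without 6 h replicate 2, 24 h replicate 2 or either 0 h array, and the falls were 2 without 6 h replicate 1 or with arrays scaled to the median.

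**Figure D5:**
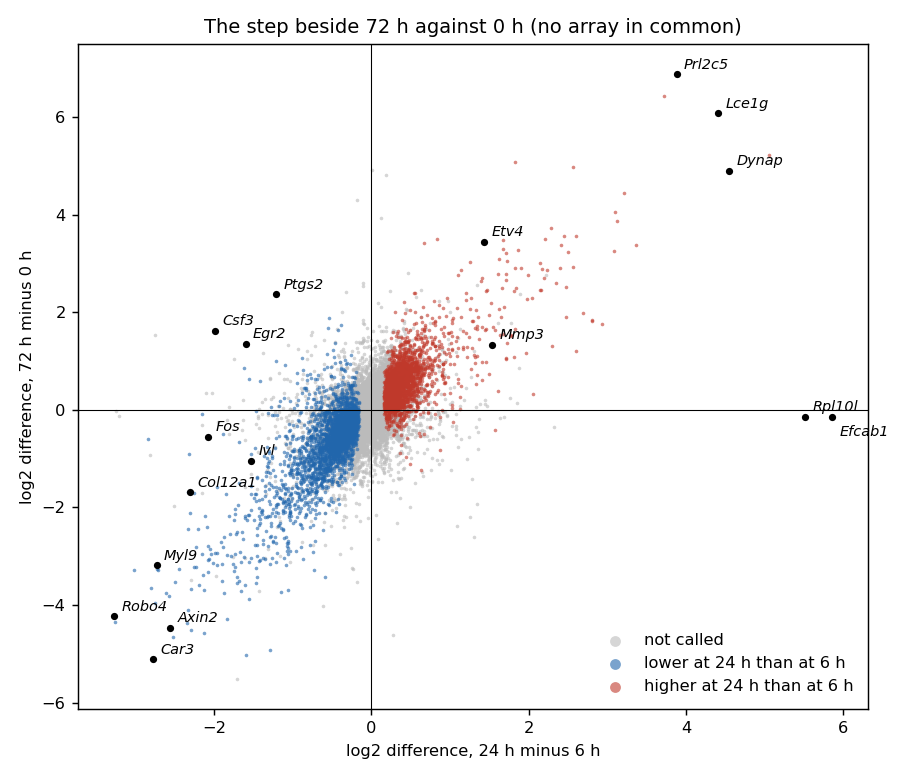
Difference between 24 h and 6 h (log2, horizontal axis) against the difference between 72 h and 0 h (log2, vertical axis) for 20210 genes; the 2 differences share no array. Red and blue mark genes called higher and lower across the step, most of which lie on the same side in both; Efcab1 and Rpl10l lie far right near 0 on the vertical axis.

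The step was set against the whole course with arrays it does not use, 72 h against 0 h, though both differences come from one fit and one estimate of spread. That comparison called 52.5% of genes, 27.9% higher and 24.7% lower. Of the 2495 genes that rose across the step, 2072 (83.0%) were higher at 72 h than at 0 h and 53 were lower. Of the 2710 that fell, 2160 (79.7%) were lower and 139 were higher. The shared genes were 36.8% of all those higher and 43.4% of all those lower at 72 h. Among changes of at least 2-fold, 125 of 141 rises and 286 of 315 falls had the same call at 72 h, 0 of the rises had the opposite call, and 8 of the falls did.

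Several lists went against this. Of the 17 immediate early genes that fell, 10 were higher at 72 h and 3 lower, and of the 10 cytokine genes 5 were higher and 4 lower. Of the 8 ERK feedback and Ets genes that fell, 5 were higher and 1 lower, and of the 11 SRF and actin genes 6 were higher and 3 lower. By contrast the matrix, Wnt and ribosome genes called across the step had the same call at 72 h, all 17, 9 and 21 of them.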

How the data were processed

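RNA of 8 samples was measured on 1-colour Agilent mouse arrays labelled with Cy3, per the labels' protocols. The deposited scanner files give each spot's processed signal as an intensity, from Feature Extraction 10.5.1.1 on mm9 per the file headers, whereas the submitters' processing notes name version 10.7.3.1. The intensity in the deposited value table differed from it by at most 0.497%.

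Each processed signal was put on the log2 scale, the array's 75th percentile over 59305 non-control spots was subtracted, outlier spots were left out (12 kept probes lacked an array) and spots of a probe were averaged. Of 55681 probes, 27542 were well above background on both arrays of 6 h or of 24 h. The brightest probe stood for a gene (20210 genes, 7407 with names of clones or loci). RefSeq gave current names to 26582 probes through an accession, to 2602 through a symbol and to 492 through a synonym, while 26005 keep their file name.

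limma 3.58.1 in R 4.3.3 fitted 4 means to the 8 arrays, with 4 residual degrees of freedom and a prior of 1.82. Benjamini-Hochberg adjustment ran over all kept probes, and a call needs an adjusted p under 0.05. The median SE of a difference was 0.0747. The number of arrays limits the precision. In data simulated for 24 h against 6 h over 27542 probes and 10 draws, the test called 2.2% of probes changed 1.25-fold, 54.4% at 1.5-fold, 81.4% at 2-fold, 94.6% at 4-fold and 0.0252% of unchanged ones. Each draw changed a far smaller share of probes than the 25.8% of genes called in the data. The adjustment depends on that share, so these rates do not carry over to the data.

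Genes named are Src, the 15 largest called rises and falls with a gene name, and list members by the size of their difference, while 28 other called genes were named after their values were seen. Genes that did not pass were run under the alternatives only where that rule names them. The 32 pathway lists and 6 marker lists, like the comparison itself, were chosen with earlier results of these data known, and 11 lists were added after their values were seen. Background correction, scaling, filter, floor, block, arrays in the fit, spread, probe choice and the deposited values were tried as alternatives, as was leaving out each array. Python 3.11.15, pandas 2.3.3, the R package data.table (1.17.8) and matplotlib 3.10.9 were used.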

Additional observations from a re-analysis of the deposited data

How the results depend on the processing

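Of 283 single genes run under the alternatives, 5 turned sign under at least 1 of them, as given below. Across the settings run, genes higher at 24 h numbered 311 with no filter on dim probes, 1001 with the arrays of 6 and 24 h fitted alone, 141 with a 2-fold minimum and 916 to 2060 with 1 array left out. Genes lower numbered 1268 with median scaling, 691 with no filter, 1556 with those 4 arrays alone, 315 with a 2-fold minimum and 1354 to 2385 with 1 array left out. With the arrays of 6 and 24 h fitted alone, the rises were 10 in the ribosome assembly list and 6 among aminoacyl-tRNA synthetases. They were 8 in the G2 and mitosis list and 0 among proteasome subunits. The falls in that fit were 15 in the immediate early list and 17 in the matrix list. With an array of 6 or 24 h left out, the lone array of that time is assumed to vary like the other groups. The share of risen genes that were higher at 72 h was 85.13% with normexp, 90.18% with median scaling, 80.92% with quantile normalization, 75.27% with the 75th percentile of probes detected on all arrays and 92.28% with no filter. That of fallen genes was 76.18% with median scaling, 84.71% with the detected percentile and 86.11% with no filter. The difference of Src, -0.18, passed the threshold with a trend of spread on signal (adjusted p = 0.0358), and its adjusted p was 0.0582 to 0.271 with 1 array left out. The causes were not tested.

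With the replicate number as a block, 2723 genes were higher and 2883 lower. Deviations of same-numbered arrays correlated at 0.0822 between 6 and 24 h and at 0.0616 to 0.159 over all pairs of times, so the number was not taken as a pairing. Of the 283 single genes, Ddx55, Gbp3, Gstm6, Gstm7 and Tgfb1 lost their call under the block and Hbegf gained one. Signs of uncalled genes turned with median scaling for Egfr (0.029) and Mlxip (0.071). With 1 array left out, Areg ran from -0.21 to 0.593, Mlxip from -0.125 to 0.075 and Mlxipl from -0.448 to 0.025. Of called genes, the sign turned for Tpm1 as the median over its probes (0.10). Single calls were lost most often with no filter (139 of 283), without 6 h replicate 1 (79) and without 6 h replicate 2 (73). Probes near background have no reliable fold, and the calls of small lists rest on 2 arrays a time.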

Other observations

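Some gene families that the lists above do not cover were picked after their values were seen, so their counts describe them and test nothing. Retinoid genes, which make, carry or read retinoic acid, fell in 7 of 13, with a median of -0.59. Besides Rdh10, the retinol importer Stra6 was at 0.97 and 1.09 at 6 h and at -1.08 and -1.45 at 24 h (-2.29 ± 0.13, adjusted p = 0.000675 by limma). Aldh1a2, which makes retinoic acid, was well above background on no 24 h array and at least 3.1-fold lower. Aldh1a1 fell by 0.82 and the receptor Rara by 0.58, while Rarg (-0.01) and Rxra (0.23) did not pass, and without 24 h replicate 1 or with arrays scaled to the median there was 1 rise.

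Hmga2, a chromatin protein of embryonic and transformed cells, was at 3.20 and 3.22 at 6 h and at 4.84 and 5.0 at 24 h, a 3.27-fold rise (1.71 ± 0.07, adjusted p = 0.000382), and Hmga1 went from 7.04 and 7.13 to 8.18 and 8.31 (1.16 ± 0.07). Lin28b, which blocks let-7 maturation, fell from 2.66 and 2.71 to 2.03 and 1.99 (-0.68 ± 0.05). Keratins went both ways, with 4 of 25 higher (16%) and 7 lower (28%), against 12.3% and 13.4% of all genes: Krt15, of basal keratinocytes, fell from 2.70 on both arrays to 1.1 and 0.80 (-1.75 ± 0.10), Krt7 fell by 1.28, and Krt18, of simple epithelia, rose from -0.89 and -0.88 to -0.22 and -0.09 (0.74 ± 0.10). The keratin rises were 1 without either 6 h array or 24 h replicate 2, and the falls 4 without 6 h replicate 2.

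Of 15 Ly49 genes (Klra) on the array, 5 were tested and 4 of these rose. Among them was Klra2, from -3.49 and -3.47 to -1.58 and -1.56 (1.91 ± 0.04). Klra4 and Klra15 were well above background on no 6 h array and entered through the 24 h arrays alone, so their rise was given by the filter. Of 13 Speer genes on the array, testis-enriched copies of one another, 6 were tested and 4 of these rose. Among them was Speer1, from -1.65 and -1.53 to 0.44 and 0.68 (2.15 ± 0.09). Probes of these families read near-identical copies. The interferon-induced membrane protein Ifitm1 went from -0.99 and -1.06 to -2.69 and -2.70 (-1.67 ± 0.09) and 4 of 6 Ifitm genes fell, or 2 without 6 h replicate 1. DEAD-box helicases, RNA-remodelling enzymes of which several act in ribosome assembly, rose in 15 of 33 and fell in 2, led by Ddx41 (0.44) and Ddx39a (0.41), with 6 to 8 rises and 1 fall without either 6 h array or 24 h replicate 2 and 0 falls with arrays scaled to the median. Glutathione transferases of the Gstm group fell in 6 of 7, but in 3 without 6 h replicate 1 or 24 h replicate 1 and in 2 without 6 h replicate 2 or with arrays scaled to the median. Probes for unnamed lincRNA intervals were higher in 103 of 2548 (4.04%) and lower in 237 (9.3%), under the 12.3% and 13.4% of all genes.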
